A study of Homo sapiens with 4 samples.

Results

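The homeobox and developmental transcription factor families were followed through an RNA-seq table of K562 cells, a widely used cell line from chronic myeloid leukaemia with the BCR-ABL fusion gene. Members were the rows whose gene symbol begins with HOX, SOX, FOX, TBX, PAX, LHX, NKX, DLX, IRX, POU, GATA, KLF, MEIS, PRDM or the SIX-family letters followed by a digit, or by a subfamily letter and a digit in HOX and FOX, together with SP8. The rule found 36 members among the 3200 rows of the table, of which 2288 carry a gene symbol. GATAD1 carries the letters of the rule but is not a GATA factor and was left out.

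There were 4 libraries of poly-A RNA, 1 each of untreated K562 (parental, labelled wild type), of the imatinib-resistant derivative K562/IMR (resistant, untreated), of K562 given R-Exo and of K562 given S-Exo, both for 48 h. Imatinib inhibits the BCR-ABL kinase, and the names R-Exo and S-Exo were taken to mean exosomes, small secreted vesicles, of resistant and of sensitive cells. The labels describe a single resistant line and do not say how it was selected. The values are FPKM, fragments scaled to gene length and library size, and the table covers only genes chosen by the authors for differential expression. With 1 library per group no difference had a replicate check, so no p-value or standard error is given, and the depth is unknown.

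The libraries fell into 2 like pairs, and R-Exo, labelled as treated K562, lay beside the resistant line rather than beside parental. Over all rows, log2 (FPKM + 1) had Pearson's r of 0.974 in resistant and R-Exo and 0.977 in parental and S-Exo, and 0.729 to 0.736 in the other pairs. Over the 36 members the same r was 0.967 for resistant and R-Exo, 0.987 for parental and S-Exo, and 0.225 to 0.313 in the others. All these rows were selected for differential expression, and the part of that selection in the low r values was not tested. A response to R-Exo vesicles and another source of resistant-line RNA in the R-Exo library cannot be told apart. Of 13 erythroid markers 6 were listed, all above 0, and they summed to 739 FPKM in parental, 782 in S-Exo, 1400 in resistant and 1529 in R-Exo. Most of the sum was HBZ (480, 533, 1101 and 1253 FPKM in that order), and TFRC ran the other way (224, 214, 114 and 98.6 FPKM). Summed levels of 2 of 7 megakaryocyte markers (2.31, 2.88, 18.9 and 16.5 FPKM in that order), 2 of 7 myeloid (0.640, 0.985, 4.72 and 5.12) and 2 of 6 lymphoid ones (0.974, 1.30, 13.1 and 11.8) were also higher in resistant and R-Exo. The myeloid sum was mostly CD33, while ITGAM had 0.0966, 0.292, 0.0145 and 0.0421 FPKM, and in the megakaryocyte sum GP1BA was lowest in R-Exo (0.105 FPKM). The 2 listed of 7 fibroblast and epithelial markers summed to 0.192 to 1.11 FPKM, and the collagen gene COL1A2 was listed at 0 in parental and S-Exo. The part of these lineage markers in the member values was not tested.

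Homeodomain, forkhead, T-box, paired-box, POU, SOX and GATA proteins bind DNA through conserved domains and set cell identity and body plan in the embryo. KLF and SP proteins bind GC-rich elements through zinc fingers, and PRDM proteins join a zinc-finger array to a domain related to histone methyltransferases. In blood cells GATA1 and KLF1 are core erythroid factors, and HOXA genes with their partner MEIS1 are known for their roles in acute leukaemias. GATA1, KLF1 and MEIS1 are not analysed here, because the members are limited to the authors' selection.

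All 36 members are protein-coding in GENCODE release 29 (GRCh38) and lie on 18 chromosomes. In these gene models 14 members have an exon that overlaps an exon of another gene, a coding gene in 6 of them. That release holds 230 coding genes that the rule matches, of which 15.7% were listed, beside 11.5% of all 19951 coding genes. By family the listed members were 8 of 50 FOX, 4 of 18 KLF, 4 of 17 POU, 4 of 13 TBX, 3 of 39 HOX, 3 of 6 GATA, 2 of 19 SOX, 2 of 15 PRDM, and 1 each of 9 PAX, 8 LHX, 6 DLX and 3 MEIS genes, beside 1 further member. No IRX (of 6) or NKX (of 14) gene was listed. SP8 completes the 36.

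The 4 members that reached 5 FPKM in a library were PRDM9, TBX1, POU4F1 and FOXA3, and their promoters are shown because they carry the highest levels in each direction. Each window runs from 250 bases before to 50 after the RefSeq start (GRCh38.p14) and is written 5′ to 3′ on the strand of the gene. Capitals mark GC boxes (GGGCGG, or CCGCCC on the other strand), the elements that SP and KLF proteins bind, and TATA boxes (TATAAA). The windows are chr22:19756453-19756752 on the plus strand for TBX1, chr13:78603503-78603802 on the minus strand for POU4F1, chr5:23507359-23507658 on the plus strand for PRDM9 and chr19:45864076-45864375 on the plus strand for FOXA3.
TBX1: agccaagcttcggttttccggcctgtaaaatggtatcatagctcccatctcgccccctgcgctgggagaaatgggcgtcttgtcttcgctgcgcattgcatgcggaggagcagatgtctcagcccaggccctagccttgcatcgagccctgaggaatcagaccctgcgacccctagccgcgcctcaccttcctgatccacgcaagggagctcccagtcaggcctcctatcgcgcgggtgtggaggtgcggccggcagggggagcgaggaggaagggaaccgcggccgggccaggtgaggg
POU4F1: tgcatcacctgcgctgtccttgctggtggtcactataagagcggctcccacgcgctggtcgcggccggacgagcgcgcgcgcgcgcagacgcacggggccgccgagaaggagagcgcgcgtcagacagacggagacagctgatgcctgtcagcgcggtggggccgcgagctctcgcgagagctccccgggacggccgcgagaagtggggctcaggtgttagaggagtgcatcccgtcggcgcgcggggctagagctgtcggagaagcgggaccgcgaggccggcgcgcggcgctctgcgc
PRDM9: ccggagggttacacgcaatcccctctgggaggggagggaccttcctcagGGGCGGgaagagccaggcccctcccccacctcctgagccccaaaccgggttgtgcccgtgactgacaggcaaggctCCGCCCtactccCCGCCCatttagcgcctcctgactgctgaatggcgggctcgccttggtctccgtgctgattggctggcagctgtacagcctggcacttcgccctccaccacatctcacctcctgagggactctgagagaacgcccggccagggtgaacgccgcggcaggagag
FOXA3: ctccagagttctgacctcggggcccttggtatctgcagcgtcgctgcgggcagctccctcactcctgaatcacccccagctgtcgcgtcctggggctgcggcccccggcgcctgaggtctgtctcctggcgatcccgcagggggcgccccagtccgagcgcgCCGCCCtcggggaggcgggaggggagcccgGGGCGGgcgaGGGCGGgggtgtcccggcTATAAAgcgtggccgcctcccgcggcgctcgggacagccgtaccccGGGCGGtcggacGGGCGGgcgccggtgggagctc
The TBX1 and POU4F1 windows, of genes that were lower in resistant and R-Exo, held 0 GC boxes, with 22 and 47 CG dinucleotides. The PRDM9 and FOXA3 windows, of genes counted as higher in resistant than in parental, held 3 and 5 GC boxes with 17 and 37 CG dinucleotides, and the FOXA3 window also held 1 TATA box.

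Across the 25 members with a RefSeq window, 15 (60%) held a GC box, beside 64.0% of 1699 listed genes and 58.7% of 15842 coding promoters. Among members higher in both resistant and R-Exo than in both parental and S-Exo, 11 of 15 windows held one, and among those lower in both, 2 of 7. The same split was not made over all listed genes, so no link of GC boxes to direction is read from it. SP8, lower in both, had 3 boxes and MEIS3, higher in both, had 0. The GATA element AGATAA (or TTATCT on the other strand) stood in 1 member window, that of TBX19. It stood in 8.42% of listed genes and in 7.61% of coding promoters. The palindromic homeodomain core TAATTA was found in 1 window (2.65% of listed genes and 3.28% of coding promoters). TATAAA, read on the strand of the gene, was found in 2 (5.53% of listed genes and 7.01% of coding promoters). Median GC content was 65.7% in members, 64.3% in listed genes and 62.7% in all coding promoters, with medians of 21, 23 and 22 CG dinucleotides. These matches describe letters in the windows and show no binding.

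Most members were expressed at low levels. The highest of the 4 values lay below 1 FPKM in 21 members (58.3%), beside 27.5% of all rows, and the median of that highest value was 0.844 FPKM, beside 1.97 over all rows. A total of 8 members were listed at 0 in one or more libraries (22.2%, beside 10.9% of all rows). The members summed to 29.6 FPKM in parental, 29.0 in S-Exo, 48.5 in resistant and 49.1 in R-Exo. PRDM9 alone supplied 44.9% of the sum in resistant and 45.6% in R-Exo. Without PRDM9 the sums were 26.8, 26.8, 26.7 and 26.7 FPKM in the same order, so the summed level of the other 35 members differed little while its makeup did. TBX1 was the leading member in parental and S-Exo, with 23.9% and 26.2% of the sum, followed by POU4F1.

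**Figure D1:**
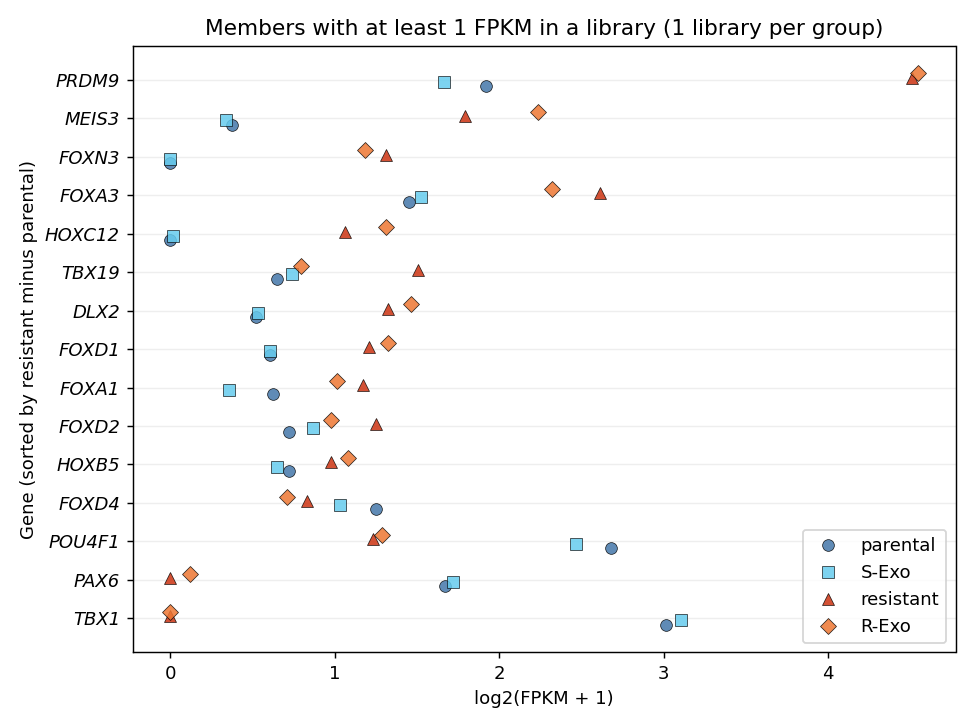
Log2 (FPKM + 1) of the 15 members that reached 1 FPKM in a library, with 1 symbol per library and genes sorted by resistant minus parental; symbols are set apart vertically for legibility. PRDM9 (21.8 and 22.4 FPKM in resistant and R-Exo) and TBX1 (7.08 and 7.61 in parental and S-Exo) mark the ends. In 11 of the 15 genes resistant and R-Exo both lie above parental and S-Exo, though in TBX19 and FOXD2 R-Exo lies close to S-Exo. In 4 genes resistant and R-Exo both lie below. Over all rows, including those below 1 FPKM, the shares were 47.3% and 39.2%.

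Resistant was compared with parental to describe the imatinib-resistant line. A gene was compared where one or both libraries had at least 1 FPKM, and counted as higher or lower where the difference of log2 (FPKM + 1) was at least 1 in size. This scale understates the difference of low genes. Of 14 members compared, 5 were higher (PRDM9, MEIS3, FOXN3, FOXA3 and HOXC12) and 3 lower (TBX1, PAX6 and POU4F1). These are 35.7% and 21.4% of the compared members, beside 28% higher and 18.1% lower among all 2151 compared rows, so the shares were near the background. The median difference was 0.70 over the compared members, 0.15 over compared rows with a gene symbol and 0.42 over all compared rows. With that overall median set to 0 (re-scaled), 1 member, PRDM9, was higher and the same 3 were lower, beside 276 rows higher and 755 lower. Just inside the limit lay HOXC12 at 1.06 and FOXA3 at 1.16, and just outside it TBX19 at 0.86 and DLX2 at 0.80.

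The comparison of R-Exo with S-Exo used the control group of the study. Of 13 members compared, 4 were higher (PRDM9, MEIS3, HOXC12 and FOXN3) and 3 lower (TBX1, PAX6 and POU4F1). The background was 23.2% higher and 21.2% lower of 2154 rows, and the members had 30.8% and 23.1%. The median was 0.71 in members, -0.09 over compared rows with a gene symbol and 0.21 over all compared rows. Re-scaled, 3 members were higher and 3 lower, beside 331 rows higher and 678 lower of 2154. This difference shares no library with resistant minus parental. Over the 36 members the 2 differences had Pearson's r of 0.96 and Spearman's rho of 0.88, and 33 had the same sign, while over all rows r was 0.91, rho 0.88 and 89.2% had the same sign. The points of each axis share their libraries and genes are not independent replicates. The 3 members of opposite sign were TBX10, KLF4 and SOX6.

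**Figure D2:**
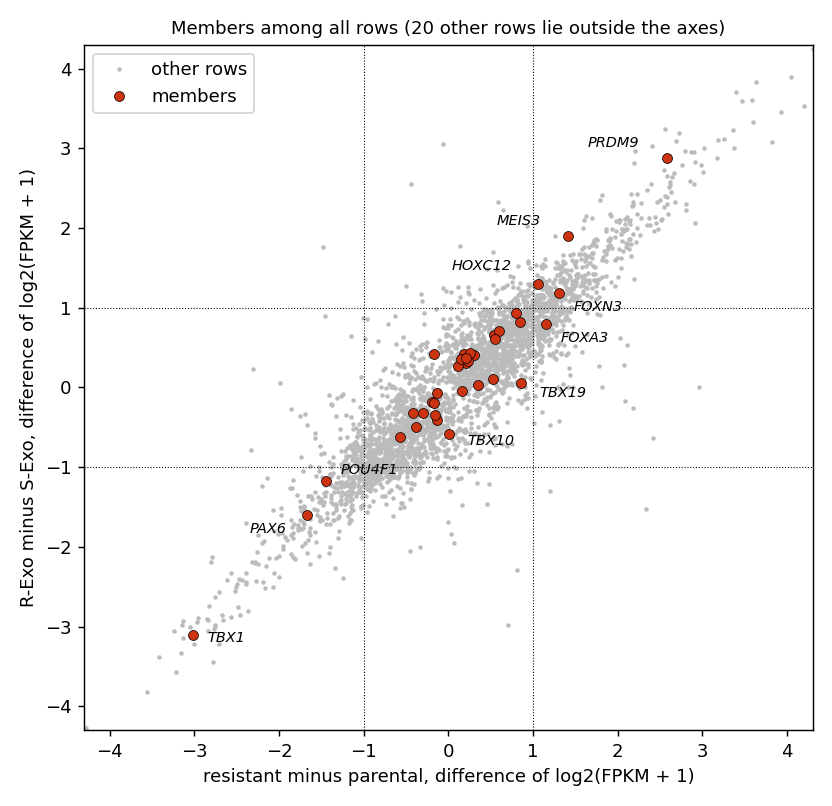
Difference of log2 (FPKM + 1) in resistant minus parental (x axis) and R-Exo minus S-Exo (y axis) for members (red) and all other rows (grey), with dotted lines at differences of 1; 20 other rows lie outside the axes. The members run along the same diagonal as the other rows, from TBX1 (-3.01 and -3.11) to PRDM9 (2.59 and 2.88).

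S-Exo against parental and R-Exo against resistant gave 0 members higher and 0 lower, of 6 and 12 compared. In the first, 1.63% of all 1723 compared rows were higher and 1.22% lower. In the second, 1.6% of 1879 were higher and 1.22% lower. The largest difference of a compared member was -0.26 (PRDM9) in S-Exo minus parental and -0.71 (TBX19) in R-Exo minus resistant. FOXA1, below 1 FPKM in parental and S-Exo and so not compared there, had -0.27 in S-Exo minus parental. R-Exo against parental, which shares a library with the first comparison, counted the same 7 genes as R-Exo against S-Exo, 4 higher and 3 lower of 13 compared. Its background was 23.5% higher and 21.5% lower of 2115 rows. Re-scaled, 2 members were higher and 3 lower there, beside 279 rows higher and 759 lower of 2115.

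**Figure D3:**
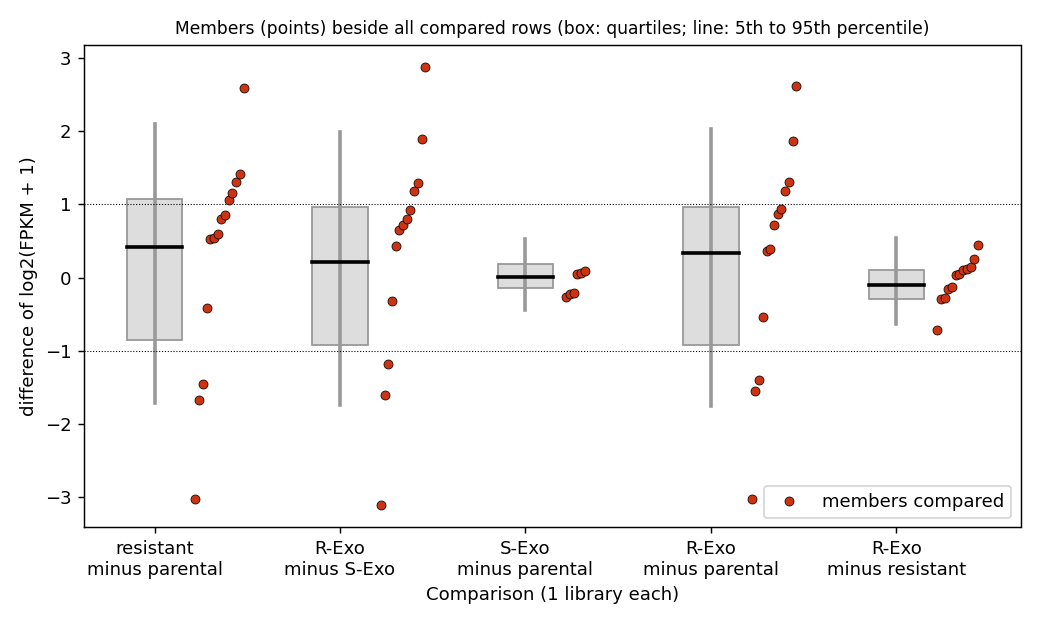
Difference of log2 (FPKM + 1) of each compared member (red points, sorted) beside all compared rows (box, quartiles with the median; grey line, 5th to 95th percentile) in 5 comparisons of single libraries. Members reach past 1 in the 3 comparisons across the like pairs of libraries and stay within 0.71 in S-Exo minus parental and R-Exo minus resistant.

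Regardless of size, 21 members (58.3%) were higher in both resistant and R-Exo than in both parental and S-Exo, beside 47.3% of all rows. They include TBX19, FOXD2 and SOX7, in which R-Exo lay only just above S-Exo. The values were 0.738 against 0.669, 0.973 against 0.827 and 0.0534 against 0.0303 FPKM. A further 12 members (33.3%) were lower in both, beside 39.2% of all rows. The remaining 3 overlapped. The table covers only genes that the authors selected, and the libraries fell into like pairs. The part of either in this split was not tested.

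Among the PRDM genes, PRDM9 had the highest level of any member in resistant and R-Exo, though not in parental or S-Exo, where TBX1 and POU4F1 stood above it. PRDM9 encodes the germline histone methyltransferase that places meiotic recombination hotspots. It had 2.79 FPKM in parental, 2.17 in S-Exo, 21.8 in resistant and 22.4 in R-Exo. The level in resistant was 7.80-fold that in parental, and that in R-Exo 10.3-fold that in S-Exo, with log2 differences of 2.59 and 2.88. Resistant and R-Exo were alike, within 1.03-fold. PRDM9 lies at chr5:23443586-23528597 on the plus strand, and the RefSeq window above falls inside that GENCODE model, which begins farther upstream. PRDM7 is a close paralog with which reads can be shared, so the value is uncertain. The other listed PRDM gene was PRDM1 (BLIMP1), a regulator of plasma cells, with 0.316, 0.406, 0.147 and 0.234 FPKM in parental, S-Exo, resistant and R-Exo.

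Among T-box genes, TBX1 showed the reverse pattern. TBX1, a regulator of pharyngeal and cardiac outflow development that lies in the 22q11 deletion region, had 7.08 FPKM in parental and 7.61 in S-Exo, and resistant and R-Exo were both listed at 0. No fold was computed against 0. On the log2 (FPKM + 1) scale the differences were -3.01 in resistant minus parental and -3.11 in R-Exo minus S-Exo, the largest of any member. TBX1 lies at chr22:19756703-19783593, and its exons overlap exons of GNB1L on the opposite strand, whose reads cannot be told apart where strand was not used. TBX19 (TPIT), a pituitary factor, was high in resistant alone, with 0.569 FPKM in parental, 0.669 in S-Exo, 1.85 in resistant and 0.738 in R-Exo. TBX10 was low in R-Exo alone (0.113 FPKM, against 0.533 in parental, 0.543 in resistant and 0.666 in S-Exo). TBX3, a limb and heart regulator, was listed at 0 in parental and S-Exo and had 0.229 FPKM in resistant and 0.325 in R-Exo.

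The homeobox members held both directions. Of the 3 listed HOX genes, which pattern the body axis, HOXC12 passed the limit, HOXB5 did not, and HOXA3 stayed below 1 FPKM and was not compared. HOXC12 was listed at 0 in parental and had 0.0124 FPKM in S-Exo, 1.09 in resistant and 1.48 in R-Exo. HOXA3 was listed at 0 in parental and had 0.0326 FPKM in S-Exo, 0.803 in resistant and 0.828 in R-Exo. HOXB5 had 0.648 FPKM in parental, 0.567 in S-Exo, 0.967 in resistant and 1.11 in R-Exo, differences of 0.26 and 0.43. The 3 genes lie in different HOX clusters, on chromosomes 12, 7 and 17, and no other HOX gene was listed. HOXA3 exons overlap those of the antisense genes HOXA-AS2 and HOXA-AS3, and HOXB5 exons overlap HOXB-AS3.

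MEIS3, a TALE homeodomain partner of HOX proteins at chr19:47403124-47419523, had 0.297 FPKM in parental, 0.268 in S-Exo, 2.46 in resistant and 3.72 in R-Exo. Its level was 8.30-fold higher in resistant than in parental and 13.9-fold higher in R-Exo than in S-Exo, with log2 differences of 1.42 and 1.90. The first of these was 0.997 when re-scaled, just under the limit. DLX2, a forebrain and craniofacial regulator, had 0.436 FPKM in parental, 0.450 in S-Exo, 1.50 in resistant and 1.76 in R-Exo, with differences of 0.80 and 0.93 that did not pass the limit. LHX1, a LIM-homeobox gene of kidney and head development, had 0.285 FPKM in parental, 0.384 in S-Exo, 0.152 in resistant and 0.0875 in R-Exo.

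PAX6 and POU4F1, both neural and sensory regulators, were lower in resistant and R-Exo. PAX6, the paired-box factor of eye development, had 2.18 FPKM in parental and 2.29 in S-Exo, was listed at 0 in resistant and had 0.0880 in R-Exo. Its level was 26.0-fold lower in R-Exo than in S-Exo, and its log2 differences were -1.67 in resistant minus parental and -1.60 in R-Exo minus S-Exo. PAX6 lies at chr11:31784779-31818062, and its exons overlap those of ELP4 and of the noncoding gene PAUPAR on the opposite strand. POU4F1 (BRN3A), a factor of sensory neurons at chr13:78598362-78603560, had 5.40 FPKM in parental, 4.52 in S-Exo, 1.35 in resistant and 1.44 in R-Exo. Its log2 differences were -1.45 in resistant minus parental and -1.18 in R-Exo minus S-Exo, where it was 3.14-fold lower. The other POU genes stayed below 0.5 FPKM everywhere. POU2F2 (OCT2), a B-cell factor, had 0.0625, 0.0278, 0.224 and 0.266 FPKM in parental, S-Exo, resistant and R-Exo.

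Of the 8 forkhead members, FOXA3 and FOXN3 passed the limit. Regardless of size, 6 had higher values in both resistant and R-Exo than in both other libraries and 2 lower, beside 47.3% and 39.2% of all rows. The 3 FOXA genes encode pioneer factors of liver and other endoderm, and FOXA3 alone of them passed the limit, in resistant against parental. FOXA3 had 1.74 FPKM in parental, 1.88 in S-Exo, 5.11 in resistant and 4.01 in R-Exo, a difference of 1.16 in resistant minus parental and 0.80 in R-Exo minus S-Exo. FOXA1 had 0.546, 0.281, 1.25 and 1.02 FPKM in the same order, within the limit at 0.54 and 0.66. FOXA2, below the minimum for comparison, had 0.481 FPKM in parental and 0.540 in S-Exo, with 0 listed for resistant and R-Exo. FOXA1 exons overlap the coding gene TTC6 on the opposite strand.

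FOXN3 (chr14:89124871-89619149), which encodes a transcriptional repressor, was listed at 0 in parental and S-Exo and had 1.48 FPKM in resistant and 1.28 in R-Exo. Its differences of 1.31 and 1.19 became 0.89 and 0.97 when re-scaled. FOXD1, a gene of kidney stroma, had 0.525 FPKM in parental, 0.526 in S-Exo, 1.31 in resistant and 1.50 in R-Exo. FOXD2 had 0.649, 0.827, 1.38 and 0.973 FPKM in the same order. FOXD4 had 1.38 FPKM in parental, 1.04 in S-Exo, 0.780 in resistant and 0.637 in R-Exo. FOXD1, FOXD2 and FOXD4 did not pass the limit. FOXD4 has near-identical paralogs that can share reads. FOXC2, a lymphatic vessel factor, reached 0.368 FPKM in R-Exo and 0.164 in resistant.

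The GATA, KLF, SOX and SP members remained below 1 FPKM in every library. GATA3, a T-cell factor, had 0.0264 FPKM in parental, 0.0644 in S-Exo, 0.183 in resistant and 0.373 in R-Exo. GATA4 and GATA5 are factors of heart and endoderm. GATA4 had 0.350, 0.398, 0.0996 and 0.120 FPKM and GATA5 0.825, 0.926, 0.396 and 0.371 FPKM in the same order. KLF15 (0.937 FPKM), KLF4 (0.860) and KLF5 (0.669) had their highest value in R-Exo, and KLF7 in S-Exo (0.361). KLF4, a pluripotency factor, overlapped between the pairs, with 0.627 FPKM in parental, 0.395 in S-Exo and 0.448 in resistant. SOX7, an endothelial factor, was high in resistant alone (0.301 FPKM, against 0.0239 in parental, 0.0534 in R-Exo and 0.0303 in S-Exo). Its exons overlap exons of the coding gene PINX1 on the same strand, so reads can be shared and this low value is uncertain. SOX6, which takes part in globin switching, had between 0.0597 and 0.189 FPKM. SP8, a limb factor, had 0.186 FPKM in parental, 0.365 in S-Exo, 0.0771 in resistant and 0.0263 in R-Exo. Of the 21 members below 1 FPKM in every library, 10 had higher values in both resistant and R-Exo, 8 lower and 3 overlapped, near the 47.3% and 39.2% of all rows. POU6F1 had its highest value in R-Exo (0.431 FPKM).

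**Figure D4:**
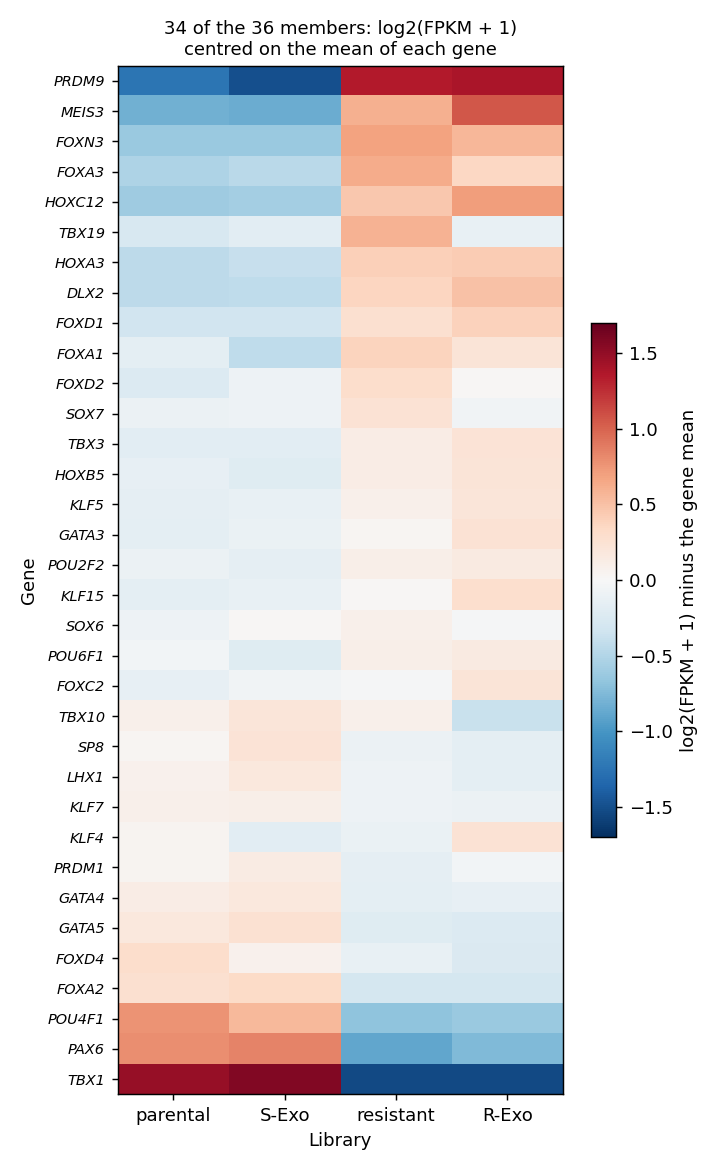
Heat map of log2 (FPKM + 1) of 34 of the 36 members minus the mean of each gene (colour) in the 4 libraries (columns), with genes sorted by resistant minus parental. Parental and S-Exo share their colours, as do resistant and R-Exo, except in genes such as TBX19, SOX7 and TBX10, in which 1 library stood apart.

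The genes of the table with the most similar course over the 4 libraries were taken for the 3 members with the highest values, by the root mean square distance of centred log2 (FPKM + 1) among 739 other genes that reached 5 FPKM. For PRDM9 they were TKTL1 (distance 0.09), CPXM1 (0.10) and MS4A4A (0.11). TKTL1 had 0.0430 FPKM in parental, 0.0317 in S-Exo, 5.62 in resistant and 5.68 in R-Exo. For TBX1 they were IQGAP2 (0.04), SLC27A2 (0.06) and EREG (0.06), and for POU4F1 ISG15 (0.04), RGCC (0.05) and ADCK2 (0.05). With 4 libraries in 2 like pairs, many genes share such a course. On this scale genes of unlike fold can also lie close. TKTL1 had 0.0430 FPKM in parental and 5.62 in resistant, beside 2.79 and 21.8 for PRDM9.

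Neighbouring genes of the table were listed within 500 kb of 18 of the 36 members, in 32 pairs. Of the 8 members counted in resistant against parental, 5 had a neighbour. All 8 of their pairs had the same sign of difference, and 3 neighbours were themselves counted, all in the direction of the member. Over all members, however, 10 neighbours were counted and 4 of these had the sign of the member, beside 28% of all compared rows higher and 18.1% lower. RCN1, which lies 272842 bp from PAX6, had 4.36 FPKM in parental, 4.42 in S-Exo, 0.0193 in resistant and 0 in R-Exo. KPTN and SELENOW near MEIS3 were higher in resistant (7.09 against 2.70 and 33.6 against 16.3 FPKM), SELENOW only just, at a difference of 1.00. Over all members 19 of 32 pairs had the same sign. Regardless of size, 55.1% of all rows had a higher value in resistant than in parental and 44.6% a lower one. Around GATA4, which had a lower value in resistant, the 4 neighbours had higher values, 3 of them past the limit (NEIL2, FDFT1 and FAM86B1). The pairs of 1 member are not independent of each other.

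Other transcription factor genes came from lists taken from textbook knowledge. Of 81 genes in a list of further developmental factors, 14 were listed and 10 compared in resistant against parental, with 5 higher, 3 lower and a median of 0.90. These and the following counts stand beside 28% higher, 18.1% lower and a median of 0.42 over all compared rows in resistant against parental, and 23.2%, 21.2% and 0.21 in R-Exo against S-Exo; with so few genes compared, nothing is read from them. LEF1, a nuclear effector of Wnt signalling, had 11.3 FPKM in resistant and 0.115 in parental. DACH1, a partner of EYA proteins, had 2.62 FPKM in parental, 3.27 in S-Exo and 0 in both other libraries. TEAD1, an effector of the Hippo pathway, had 3.03 FPKM in parental, 0.760 in S-Exo, 0.267 in resistant and 0.270 in R-Exo, so it also differed between S-Exo and parental. SP6 had 3.65 FPKM in resistant and 0.518 in parental. In R-Exo against S-Exo the list had 5 higher and 2 lower of 10, with a median of 0.72.

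Of 86 other homeobox genes 9 were listed and 4 compared, with 3 higher and 0 lower in resistant, and 2 higher and 0 lower of 4 in R-Exo against S-Exo, where ZEB1 differed by 0.69. MSX1, a limb and craniofacial factor, had 4.45 FPKM in resistant and 0.981 in parental, ZEB1, a repressor of epithelial genes, 4.51 against 1.27, and ZFHX4 1.85 against 0.182. MNX1, a motor neuron factor, had 0.932 against 2.04 FPKM and did not pass the limit. Of 51 blood transcription factors 9 were listed and 6 compared, with 0 higher and 1, ZFPM2, lower (3.24 against 7.71 FPKM), and a median of -0.08. The stem-cell factor gene MECOM (6.36 against 2.73), IKZF1 (11.3 against 19.9) and LMO2 (24.7 against 14.2) lay within the limit. In R-Exo against S-Exo the blood list had 1 higher (LMO2, 29.7 against 10.8 FPKM) and 1 lower (LYL1, 38.4 against 81.1 FPKM) of 6, with a median of -0.36. Of 55 Polycomb, Trithorax and related chromatin genes 2 were listed. EED, a core subunit of Polycomb repressive complex PRC2, was lower in resistant (26.7 against 61.0 FPKM) and in R-Exo (18.9, against 52.4 in S-Exo). PHC1 had 3.53 against 3.18 FPKM in resistant and parental, and 4.20 against 1.48 in R-Exo and S-Exo.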

How the data were processed

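Poly-A RNA was read in 4 libraries built from K562 RNA with a NEBNext Ultra kit, per the labels' protocols, 1 per group. The authors deposited 1 table of FPKM values with a column per library; the unit and the selection for differential expression were read from the table's name, and how they were selected is not stated in the sources used. The submitters' processing notes name SAMtools 0.1.18, GATK, Picard and TopHat2, with no roles. For the build, annotation, counting tool and use of strand, nothing is stated in those sources.

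From the table, differences of log2 (FPKM + 1) were taken between single libraries over genes that reached 1 FPKM in one or both, and a difference of at least 1 in size was counted. No test was run. The values of 2 members and of 1 other gene are not reported here. Members that reached 1 FPKM are given in all 4 libraries, lower ones by their highest value or more, and up to 4 genes of each other list by size of difference. Positions and overlapping models came from GENCODE release 29 (GRCh38), matched by identifier, and promoters from RefSeq (GRCh38.p14), matched by symbol for 25 members; of several windows the one nearest the GENCODE start was used. The members, lists and comparisons were chosen with earlier results of these data known. Python 3.11.15, numpy 2.4.6, pandas 2.3.3 and scipy 1.17.1 were used. The counting code was checked on parental values with planted changes. Those values lay above the levels of most members, so the check does not cover low levels. Alternatives were quantile normalization, re-scaling so that the overall median difference was 0, a pseudocount of 0.1, a minimum of 5 FPKM or none at all, and parental as the control of R-Exo, and, chosen after seeing the data, a background of rows with a gene symbol.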

Additional observations from a re-analysis of the deposited data

How the results depend on the processing

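No paired analysis was possible because each group had 1 library, and no library could be left out. With a pseudocount of 0.1, 9 members were higher in resistant against parental, 8 in R-Exo against S-Exo and 7 in R-Exo against parental. The counts over all rows rose too, to 908 of 2151, 776 of 2154 and 769 of 2115. The member medians were 1.34, 1.36 and 1.16 in these 3 comparisons. In R-Exo against resistant 1 member was lower, beside 91 of 1879 rows. With a minimum of 5 FPKM, 2, 1 and 1 members were higher in the first 3 comparisons, beside 317 of 850, 254 of 812 and 245 of 822 rows. In R-Exo against S-Exo 1 member was lower, beside 246 of 812 rows. The member medians, over 2 to 4 members, became -0.14, -0.11 and -1.39, and -0.12 in R-Exo against resistant. Those medians changed sign once the members between 1 and 5 FPKM were left out, and they rest on few members. With no filter the medians over all 36 members were 0.19, 0.28 and 0.22, and 0.021 in S-Exo against parental. Re-scaling removes an overall median of 0.42 in resistant against parental, 0.21 in R-Exo against S-Exo and 0.34 in R-Exo against parental. It left 1 member higher in the first and 2 in the third, beside 276 of 2151 and 279 of 2115 rows. The member medians were 0.28, 0.50 and 0.38, and 0.15 in R-Exo against resistant. Quantile normalization gave 3 members higher in resistant against parental, beside 447 of 2149 rows, and a member median of 0.42. FOXA3 and HOXC12 fell just under the limit, at 0.99 and 0.98. TBX1, PAX6, POU4F1 and PRDM9 kept their direction and passed the limit under the pseudocount, re-scaling and quantile alternatives, in resistant against parental and in both comparisons of R-Exo with a control. With parental in place of S-Exo as control of R-Exo, 4 members were higher and 3 lower, and including GATAD1 gave 37 members. The background over rows with a gene symbol was 27.8% higher and 20.6% lower in resistant against parental. Its median difference was 0.15 there, -0.09 in R-Exo against S-Exo and 0.06 in R-Exo against parental. These lie below the medians over all compared rows, which re-scaling removed. Re-scaling by the rows with a gene symbol was not done. Depth is unknown, so the differences of members below 1 FPKM cannot be set against counting error.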

Other observations

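EYA1, DACH1 and PAX6 encode proteins that act in one network of eye and sensory organ development, known best from Drosophila, and they were set side by side after their values had been seen. EYA1, below 1 FPKM throughout, had 0.0949 FPKM in parental, 0.0738 in S-Exo, 0.798 in resistant and 0.473 in R-Exo. PAX6 and DACH1 were lower in resistant and R-Exo, with DACH1 listed at 0 in resistant and R-Exo and at 3.27 FPKM in S-Exo.

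GATAD1, the gene that carries the letters of the rule without being a GATA factor, had 9.11 FPKM in parental, 9.92 in S-Exo, 29.4 in resistant and 25.7 in R-Exo, which is above every member in each of the 4 libraries.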
